A study of Homo sapiens with 8 samples.

Results

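The genes described here are 39 genes of glucose breakdown and of the response to low oxygen, picked by gene symbol from the 61228 rows of a count table. They comprise the enzymes of glycolysis, the enzymes that set the fate of pyruvate, glucose transporters, the PFKFB regulators of glycolytic flux, and HIF1A with the sensors and genes that it works with. Of the 39, 32 had enough counts to be tested. The other 7 were ALDOA, EGLN1, P4HA2, CA9, ADM, ANGPTL4 and ANKRD37, and they are given by their levels only.

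RNA sequencing was carried out on 8 clones of RPMI-8402, a line of T-cell acute lymphoblastic leukaemia, to ask what changes in the transcriptome once NKX2-1 is disrupted. NKX2-1 is a homeobox transcription factor with known roles in thyroid and lung development. The design names C12, C15, S04 and S36 as KO clones and WT10, WT13, WT28 and WT30 as WT clones. The labels give the kind of edit for no clone, and they do not say what the letters C and S stand for. All 8 clones come from one line, share one serum-supplemented medium and were left untreated, and the labels give no oxygen tension, cell density or harvest date.

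The libraries held between 2730285 counts (C15) and 25423215 (C12) for KO clones, and 18453947 to 22916424 for WT clones. Levels are given as CPM, read counts rescaled with TMM factors so that libraries of unlike depth can be compared. A count of 0 is read as at most 3 counts, or 1.21 CPM in C15 and 0.116 to 0.229 CPM in the other clones, a limit that covers counting error only. Mitochondrially encoded transcripts took 14.8% to 21.2% of counts in KO clones and 12.9% to 15.1% in WT clones. All 9 T-lineage markers (CD3D, CD3E, CD3G, CD247, CD2, CD5, CD7, LCK and PTPRC) were above 1 CPM in every clone, and the erythroid markers HBA1 and HBB were at 0 in every clone. Of the 5 myeloid markers, CD33 and LYZ were at 0 throughout and the summed level was 0 to 1.02 CPM in KO clones and 0.0443 to 0.236 CPM in WT clones. The summed level of 4 B-lineage markers was 6.81 to 13.6 CPM in KO clones and 9.35 to 16.3 CPM in WT clones, with MS4A1 at 0, and that of 5 fibroblast or epithelial markers was 6.18 to 14.0 CPM in KO clones and 12.7 to 20.03 CPM in WT clones, with COL1A2 and EPCAM at 0.

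The mRNA of NKX2-1 did not separate the groups. It stood at 71.9 CPM (C12), 11.3 (C15), 83.5 (S04) and 33.3 (S36), against 56.3 CPM in WT10, 63.1 in WT13, 53.5 in WT28 and 54.2 in WT30. C12 and S04 were above every WT clone and C15 and S36 below every one. The log2 fold change of KO over WT was -0.15 (SE 0.42, adjusted p = 0.905 by edgeR). Since mRNA can persist after a disrupting edit, the counts do not check the KO label, and KO below means the clones labelled so.

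As background, glycolysis breaks glucose down to pyruvate, which is either reduced to lactate or passed to the mitochondria. When oxygen is short, prolyl hydroxylases of the EGLN family stop marking the HIF1A protein for destruction, and HIF1A with its partner ARNT then raises transcription of most glycolytic genes and of genes such as BNIP3, VEGFA and P4HA1. HIF1A is mainly controlled at the level of the protein, so its mRNA is not a measure of its activity. Proliferating T cells and T-cell leukaemias make heavy use of glycolysis.

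HIF1A with its partner binds DNA at short sites whose core is ACGTG or GCGTG. For this reason the promoters of 4 members are shown, picked from those whose levels ranged widely between clones or that passed a test. The printed stretches are the bases immediately before a transcription start, taken from RefSeq (GRCh38.p14) and read in the direction of the gene. Capitals mark each ACGTG or GCGTG on either strand, so that CACGT and CACGC are the cores on the opposite strand and CACGTG counts once on each strand.
BNIP3 (chr10:131981924-131982173, minus strand): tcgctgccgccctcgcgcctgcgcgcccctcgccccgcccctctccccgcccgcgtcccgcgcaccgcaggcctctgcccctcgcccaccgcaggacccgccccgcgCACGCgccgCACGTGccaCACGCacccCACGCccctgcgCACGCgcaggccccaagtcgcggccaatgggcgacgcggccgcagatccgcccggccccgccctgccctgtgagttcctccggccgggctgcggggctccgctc
PFKFB4 (chr3:48556804-48557053, minus strand): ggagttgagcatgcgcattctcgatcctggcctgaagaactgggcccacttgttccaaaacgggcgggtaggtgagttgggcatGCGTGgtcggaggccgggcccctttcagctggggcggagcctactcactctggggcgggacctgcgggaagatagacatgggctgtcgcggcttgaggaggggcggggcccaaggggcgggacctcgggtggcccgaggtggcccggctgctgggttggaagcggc
P4HA1 (chr10:73096867-73097116, minus strand): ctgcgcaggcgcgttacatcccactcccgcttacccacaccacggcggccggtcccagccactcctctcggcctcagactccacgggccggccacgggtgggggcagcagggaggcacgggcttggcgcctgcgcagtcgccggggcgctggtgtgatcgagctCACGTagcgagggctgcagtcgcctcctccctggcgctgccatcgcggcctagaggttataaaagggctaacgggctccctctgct
LDHA, 1 of its 2 listed starts (chr11:18394313-18394562, plus strand): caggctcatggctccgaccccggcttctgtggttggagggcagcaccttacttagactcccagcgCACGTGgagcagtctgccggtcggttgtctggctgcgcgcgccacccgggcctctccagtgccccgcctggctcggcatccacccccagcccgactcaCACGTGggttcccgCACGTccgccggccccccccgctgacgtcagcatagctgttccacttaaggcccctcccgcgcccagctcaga
BNIP3 held 6 core matches in these 250 bases, LDHA 5, and PFKFB4 and P4HA1 1 each. The other LDHA start, whose 250 bases lie at chr11:18396101-18396350, held 1, and the start with more matches is the one printed. EGLN3, not printed, held 0 cores. Its log2 distance between S04 and S36 was 6.02, the widest of the members as computed. That distance rests on 0 counts in S36 and thus on the prior count of 2, so its rank is uncertain. HIF1A, which passed a test and is not printed either, held 1 before 1 of its listed starts and 0 before another.

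Windows of 300 bases around the start (250 before, 50 after) were available for 35 of the 39 members, and those of BNIP3L, NDRG1, SLC2A3 and VEGFA were not used. Of the 35 genes, 32 had a core in at least 1 of their promoters, and EGLN3, P4HA2 and PGAM1 had none. Counted by promoter, 68.9% of 61 member promoters held ACGTG or GCGTG, against 48.4% of all 35116 promoters. The median GC content was 69.0% in the member promoters and 58.7% in all promoters. ACGTG alone was in 42.6% of the member promoters and in 21.4% of all promoters, and GCGTG in 42.6% and 36.5%. Such a match is a run of letters and not a measured binding site.

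No glycolysis or hypoxia gene was called different between the 4 KO and the 4 WT clones. With the edgeR quasi-likelihood test and an adjusted p under 0.05, 0 of the 32 tested members were called, where 0.316% of all 14243 tested genes (45) were called. DESeq2 and limma-voom also called 0. At an unadjusted p under 0.05 edgeR had 6 members, 3 higher (PFKP, HIF1A and LDHA) and 3 lower (PFKM, PDK1 and HK2), or 6 of 32 beside 15.5% of all tested genes. The median log2 fold change was -0.13 over the members, 12 above 0 and 20 below, and 0.02 over all tested genes. The 4 KO clones differed widely among themselves: the SD of log2 CPM had a median of 0.65 over the members in KO clones and 0.36 in WT clones, beside 0.47 in KO clones and 0.18 in WT clones over all tested genes. Without the low-count filter edgeR called 3 members, HK2 and PDK1 lower and LDHA higher, where 581 of all 31332 genes were called. Since RNA was taken in bulk, fewer cells with a transcript and less of it per cell cannot be told apart.

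**Figure D1:**
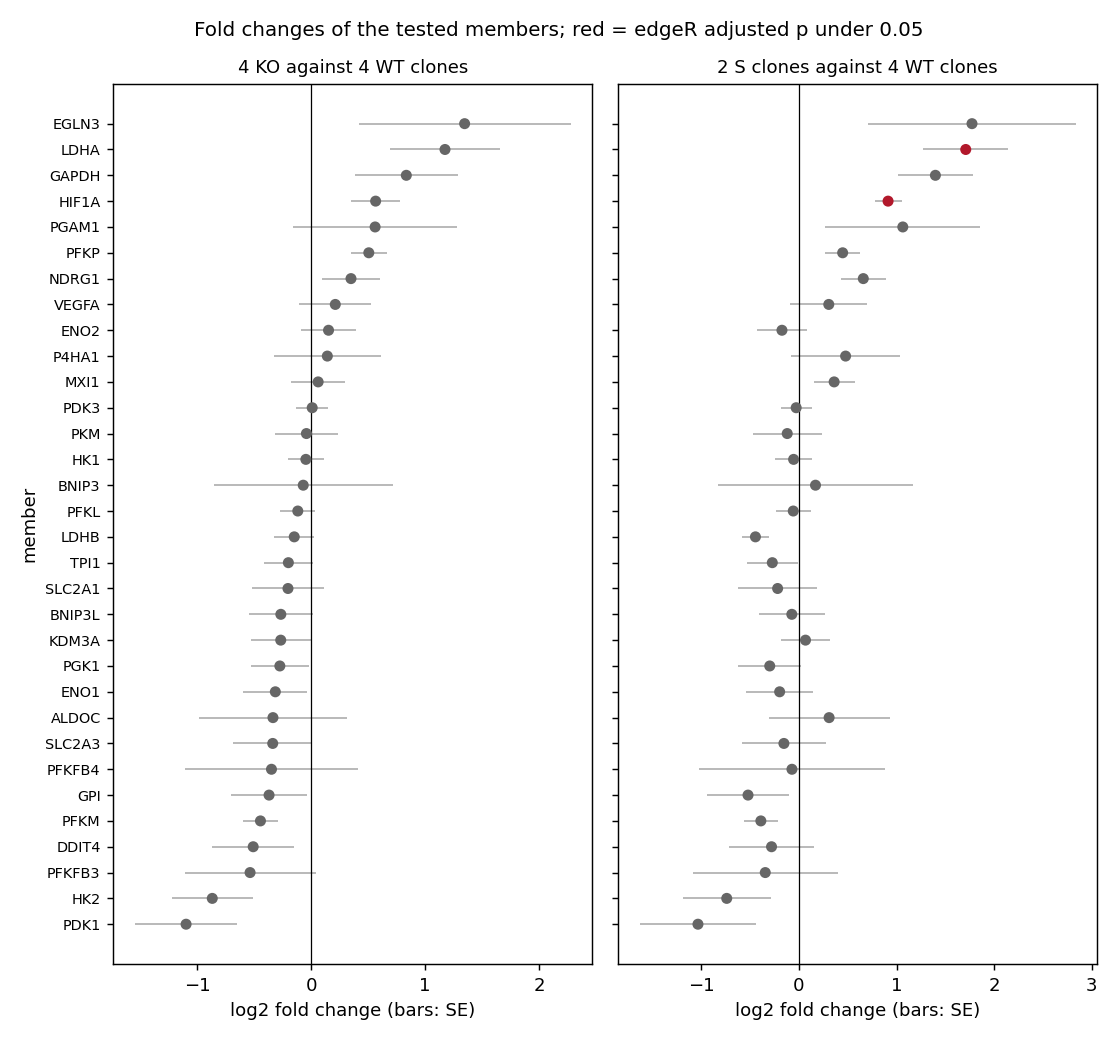
Log2 fold change (x axis) of each of the 32 tested members (y axis), with its SE as a bar, for the 4 KO against the 4 WT clones on the left and the 2 S clones against the 4 WT clones on the right. No member is red in the left panel; HIF1A and LDHA are red (edgeR adjusted p under 0.05) in the right panel.

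The steps of glucose capture showed no shared direction in KO clones. The transporters SLC2A1 and SLC2A3, which carry glucose into the cell, were at 8.39 to 26.7 and 10.5 to 39.6 CPM in KO clones, against 17.1 to 23.7 and 25.7 to 34.1 CPM in WT clones. C15 and S36 were below every WT clone for both transporters, and S04 was above every WT clone for both. HK2, the inducible hexokinase that traps glucose by phosphorylation, was at 12.7 CPM (C12), 7.66 (C15), 20.4 (S04) and 5.34 (S36), against 20.03, 27.3, 22.6 and 16.7 CPM in WT10, WT13, WT28 and WT30. S04 alone of the KO clones lay within the range of the WT clones, the other 3 being below it. HK2 had a log2 fold change of -0.87 (SE 0.35, adjusted p = 0.28 by edgeR). HK1, the constitutive hexokinase, made up 86.7% to 95.9% of the summed CPM per kb of both hexokinases in KO clones and 84.8% to 88.9% in WT clones, and was itself at 65.6 to 100.3 CPM in KO clones and 76.3 to 98.4 CPM in WT clones.

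HK2 lies on chromosome 2 at chr2:74833981-74893359 (GRCh38), and so do PDK1 and KDM3A. Over the 879 tested genes of that chromosome the median log2 difference from the WT mean was -0.34 (C12), -0.43 (C15), -0.36 (S04) and -0.23 (S36), against -0.03 to 0.03 in the WT clones. For the 57 tested genes within 5 Mb of HK2 it was -0.37, -0.30, -0.37 and 0.05 in C12, C15, S04 and S36. HK2 itself differed by -0.74, -1.46, -0.06 and -1.97 in these clones. The part of the chromosome-wide difference in the level of HK2 was not tested.

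The isozymes of phosphofructokinase, which commits sugar to glycolysis, gave the only members whose clones did not overlap between the groups. PFKP, the platelet-type isozyme, was at 112.7 CPM (C12), 174.5 (C15), 124.2 (S04) and 139.5 (S36), against 107.8, 91.8, 97.2 and 90.0 CPM in WT10, WT13, WT28 and WT30. PFKM, the muscle-type isozyme, was at 28.2, 20.96, 25.7 and 28.4 CPM in C12, C15, S04 and S36, against 31.2, 37.1, 38.1 and 35.3 CPM in WT10, WT13, WT28 and WT30. Every KO clone was above every WT clone for PFKP, as it was for 4.44% of all tested genes, and below every WT clone for PFKM, as it was for 5.62% of all tested genes. Neither passed the test: the log2 fold change was 0.51 for PFKP (SE 0.16, adjusted p = 0.18 by edgeR) and -0.44 for PFKM (SE 0.15, adjusted p = 0.205 by edgeR). With 2 of 32 members free of overlap, the share is near that of all genes.

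Per kb of transcript, PFKP made up 58.5% of the summed phosphofructokinase CPM (C12), 63.5% (C15), 58.5% (S04) and 56.5% (S36), against 51.1% in WT10, 44.3% in WT13, 47.3% in WT28 and 45.8% in WT30. The liver-type isozyme PFKL made up 28.3% to 33.2% in KO clones and 35.5% to 39.5% in WT clones, and PFKM 6.89% to 13.2% in KO clones and 13.4% to 16.7% in WT clones. All 3 shares were free of overlap, PFKP being larger and the other isozymes smaller in KO clones. The level of PFKL itself overlapped, at 59.9 to 89.9 CPM in KO clones and 81.1 to 89.9 CPM in WT clones. The 3 shares of a clone add up to a whole, so a larger PFKP share leaves less for the others. They are built from the same levels, of which PFKP and PFKM already did not overlap, so they add no separate result. The shares were not tested. PFKP lies on chromosome 10 (chr10:3066333-3137712), and the 23 tested genes within 5 Mb of it had a median log2 difference of 0.06, -0.15, -0.04 and 0.10 in C12, C15, S04 and S36.

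**Figure D2:**
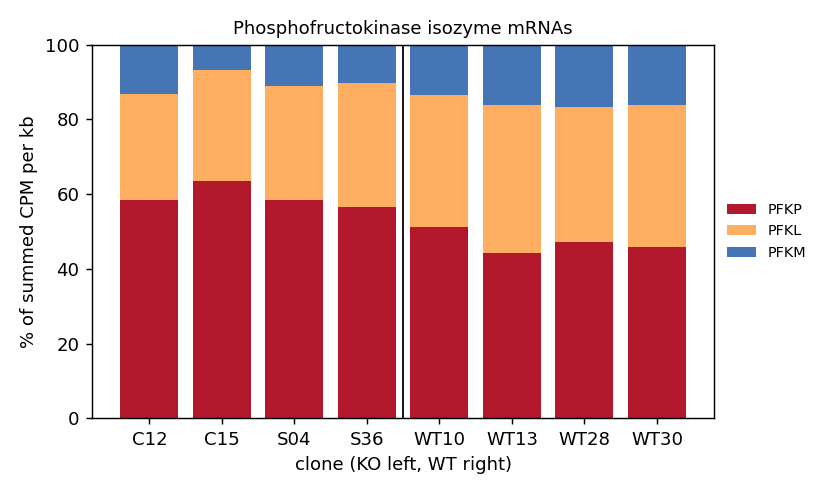
Share of the summed CPM per kb (y axis, %) held by each phosphofructokinase isozyme in each clone (x axis, KO clones left of the line and WT clones right). The PFKP share is 56.5% or more in the KO clones and 51.1% or less in the WT clones.

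The remaining enzymes of the pathway differed more between clones than between the groups. ENO1, the enolase with the most counts of the glycolytic enzymes in every clone, was at 2206 CPM (C12), 2442 (C15), 3611 (S04) and 1885 (S36), against 2801, 4947, 2093 and 2767 CPM in WT10, WT13, WT28 and WT30. The highest KO clone, S04, had 3 WT clones below it, and the highest of all 8 was WT13. ENO1 had a log2 fold change of -0.31 (SE 0.28, adjusted p = 0.632 by edgeR). GPI, which converts glucose phosphate to fructose phosphate, was at 290.8, 440.1, 437.3 and 157.4 CPM in C12, C15, S04 and S36, against 404.5, 657.9, 290.3 and 356.2 CPM in WT10, WT13, WT28 and WT30 (log2 fold change -0.37, SE 0.33, adjusted p = 0.633 by edgeR). Again WT13 was the highest clone and S36 the lowest. TPI1, which interconverts the triose phosphates, PGK1, the first step that yields ATP, and PKM, the last, ranged from 356.7 to 594.8, 347.8 to 719.7 and 324.7 to 546.9 CPM in KO clones, against 469.7 to 770.1, 465.2 to 956.7 and 261.2 to 673.2 CPM in WT clones, with WT13 the highest of the 8 for each.

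Summed over the 15 glycolytic enzymes from hexokinase to pyruvate kinase, the level was 4268 CPM (C12), 5326 (C15), 6378 (S04) and 3600 (S36), against 5220 CPM in WT10, 8603 in WT13, 4083 in WT28 and 5113 in WT30. The lowest and the highest clone of each group thus differed by more than the groups did. ENO2, the neuronal enolase, was highest in C15 at 336.5 CPM, with 153.5 to 175.3 CPM in the other KO clones and 158.1 to 217.1 CPM in WT clones. ENO1 nonetheless made up 90.0% to 96.2% of both enolases per kb in KO clones and 93.9% to 96.6% in WT clones.

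GAPDH, PGAM1 and the aldolases had few counts next to TPI1 in this table. GAPDH, an enzyme that nearly all cells make in quantity, was at 21.03 CPM (C12), 10.1 (C15), 68.0 (S04) and 28.99 (S36), against 17.9, 27.1, 16.0 and 12.8 CPM in WT10, WT13, WT28 and WT30. Per kb this is 23.8 CPM on average in KO clones and 13.7 in WT clones, where TPI1 was at 398.5 in KO clones and 457.2 in WT clones. ALDOA, the main aldolase of most tissues, had 2 counts in C12 and 0 in the other 7 clones; PGAM1 was at 0.403 to 5.48 CPM in KO clones and 0.487 to 2.57 CPM in WT clones. The table lists 65 named GAPDH pseudogenes, 13 of PGAM1 and 44 of BNIP3, and 42.3% of the exon bases of ALDOA are shared with ENSG00000285043 on the same strand. How reads matching several places or several genes were counted is not given in the sources used here, and its part in these levels was not tested. ALDOC, the brain-type aldolase, was at 0 counts in C15 and at 1.39 to 7.05 CPM in the other KO clones, against 2.496 to 7.07 CPM in WT clones.

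GAPDH was above every WT clone in both S clones and below every WT clone in C15. Its log2 fold change was 0.83 for KO over WT (SE 0.45, adjusted p = 0.409 by edgeR), 1.40 for S clones over WT (SE 0.39, adjusted p = 0.052 by edgeR) and -1.56 for C clones over S clones (SE 0.49, adjusted p = 0.158 by edgeR). DESeq2 and limma-voom called GAPDH higher in S clones than in WT clones.

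At the end of the pathway, LDHA rose in the S clones. LDHA, the lactate dehydrogenase subunit that favours lactate formation, was at 31.0 CPM (S04) and 11.5 (S36), with 5.32 (C12) and 10.1 (C15) in the other KO clones, against 5.68 CPM in WT10, 10.4 in WT13, 4.33 in WT28 and 5.72 in WT30. Both S clones were above every WT clone, while both C clones lay within the WT range. The log2 fold change was 1.71 for S clones over WT (SE 0.44, adjusted p = 0.0406 by edgeR), 1.17 for all KO clones over WT (SE 0.48, adjusted p = 0.284 by edgeR) and -1.59 for C clones over S clones (SE 0.57, adjusted p = 0.205 by edgeR). The call was lost without S04 (log2 fold change 0.82, adjusted p = 0.272 by edgeR), without WT10 (adjusted p = 0.107), WT28 (adjusted p = 0.11) or WT30 (adjusted p = 0.119), and with all libraries thinned to the shallowest (adjusted p = 0.0502). LDHA too had few counts, next to LDHB, and the table lists 6 named LDHA pseudogenes. How reads matching several places were counted is not given, and its part in the LDHA level was not tested.

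LDHB, the subunit that favours pyruvate formation, carried nearly all lactate dehydrogenase mRNA as counted. It was at 834.7 CPM (C12), 983.7 (C15), 569.7 (S04) and 675.6 (S36), against 816.0, 843.0, 875.4 and 858.4 CPM in WT10, WT13, WT28 and WT30. Both S clones were below every WT clone and C15 was above every one. The log2 fold change was -0.45 for S clones over WT (SE 0.14, adjusted p = 0.0723 by edgeR) and 0.55 for C clones over S clones (SE 0.16, adjusted p = 0.133 by edgeR). DESeq2 and limma-voom called LDHB lower in S clones than in WT clones, as did edgeR with the S and WT clones alone. Per kb, LDHA made up 0.468% of both subunits (C12), 0.751% (C15), 3.87% (S04) and 1.24% (S36), against 0.512%, 0.901%, 0.364% and 0.49% in WT10, WT13, WT28 and WT30. Of the exon bases of LDHB, 33.4% are shared with ENSG00000285854 on the same strand.

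PDK1 is a kinase that inhibits pyruvate dehydrogenase, and a known HIF1A target. It was at 22.8 CPM (C12), 15.7 (C15), 35.4 (S04) and 7.55 (S36), against 39.5, 76.9, 23.4 and 37.4 CPM in WT10, WT13, WT28 and WT30. WT28 overlapped the KO clones, and the other 3 WT clones were above all of them. The log2 fold change was -1.10 (SE 0.45, adjusted p = 0.279 by edgeR). The 48 tested genes within 5 Mb of PDK1 on chromosome 2 were at -0.31, -0.51, -0.32 and -0.37 in C12, C15, S04 and S36, on the log2 scale relative to the WT mean, against -0.10 to 0.08 in WT clones. PDK1 differed by -0.82, -1.35, -0.19 and -2.40, and the part of its surroundings was not tested. PDK3, its relative on the X chromosome, varied little, from 47.1 to 64.6 CPM in KO clones and from 53.3 to 59.8 CPM in WT clones.

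HIF1A itself, the oxygen-regulated subunit of the factor, rose in both S clones. Its mRNA was at 58.1 CPM (S04) and 57.3 (S36), with 33.7 (C12) and 30.6 (C15) in the other KO clones, against 31.5 CPM in WT10, 32.6 in WT13, 30.5 in WT28 and 28.01 in WT30. The S clones were close to each other and far above the other 6, C15 was inside the WT range and C12 was just above it. The log2 fold change of S clones over WT was 0.91 (SE 0.14, adjusted p = 0.00812 by edgeR), and it passed the threshold under each of the 16 alternatives run for it, with adjusted p of at most 0.0413. HIF1A and LDHA were the 2 of 32 members called in that comparison, where 9.65% of all tested genes were called, so the share of members is no larger than that of all genes. For all KO clones over WT HIF1A had a log2 fold change of 0.57 (SE 0.22, adjusted p = 0.25 by edgeR). The 52 tested genes within 5 Mb of HIF1A, at chr14:61695513-61748259, had median log2 differences of -0.05 in S04 and -0.10 in S36.

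With the C clones set directly against the S clones, no member was called. C clones over S clones gave 0 of 32 members with edgeR, where 0.358% of all tested genes were called, and 8 at an unadjusted p under 0.05, 1 higher (LDHB) and 7 lower in C clones, beside 17.1% of all tested genes. DESeq2 called 2, HIF1A and GAPDH, and limma-voom 0. HIF1A had a log2 fold change of -0.84 (SE 0.17, adjusted p = 0.0633 by edgeR, and 0.00884 with DESeq2). MXI1, a repressor that opposes MYC, had -0.73 (SE 0.26, adjusted p = 0.198 by edgeR), with 14.3 CPM (C12), 21.4 (C15), 28.1 (S04) and 29.1 (S36). NDRG1, a stress-induced gene, had -0.76 (SE 0.29, adjusted p = 0.228 by edgeR), with 9.17 CPM (C12), 8.46 (C15), 18.1 (S04) and 11.9 (S36). Both genes were thus higher in each S clone than in each C clone. C clones over WT gave 0 members with edgeR, where 0.0351% of all tested genes were called (0.0281% higher, 0.00702% lower), and 4 at an unadjusted p under 0.05, 1 higher (PFKP) and 3 lower (PFKM, ALDOC and KDM3A), beside 7.66% of all tested genes, with 0 called by DESeq2 and 0 by limma-voom. The comparisons of C and of S clones with WT share the 4 WT clones.

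Several genes that HIF1A is known to raise lay far apart in S04 and S36, whose HIF1A mRNA was alike. BNIP3, a mitochondrial protein that promotes mitophagy, was at 35.3 CPM (C12), 22.6 (C15), 84.6 (S04) and 1.22 (S36), against 32.2, 73.9, 20.3 and 26.8 CPM in WT10, WT13, WT28 and WT30. The value of S36 rests on 16 counts, and S04 was above it by 5.99 on the log2 scale. PFKFB3 and PFKFB4 make and break down the fructose bisphosphate that activates phosphofructokinase. PFKFB4 was at 5.43, 3.22, 14.3 and 0.305 CPM in C12, C15, S04 and S36, against 8.34, 15.03, 3.96 and 3.77 CPM in WT10, WT13, WT28 and WT30. PFKFB3 was at 29.2, 19.8, 60.9 and 5.95 CPM in C12, C15, S04 and S36, against 37.3, 76.7, 19.0 and 37.6 CPM in WT10, WT13, WT28 and WT30. For all 3 genes S36 was the lowest of the 8 clones, and S04 and WT13 were the 2 highest.

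P4HA1, which hydroxylates collagen, was at 51.6 CPM (C12), 38.7 (C15), 133.9 (S04) and 24.3 (S36), against 50.8, 96.0, 40.0 and 40.9 CPM in WT10, WT13, WT28 and WT30. EGLN3, a HIF prolyl hydroxylase that HIF itself induces, was at 1.58, 1.61, 7.29 and 0 CPM in C12, C15, S04 and S36, against 0.956, 2.36, 0.377 and 0.665 CPM in WT10, WT13, WT28 and WT30. Once more S04 and WT13 were highest and S36 lowest. The 0 of EGLN3 in S36 allows up to 0.229 CPM, and its log2 fold change of KO over WT, 1.34 (SE 0.93, adjusted p = 0.522 by edgeR), turned to -0.14 without S04 (adjusted p = 0.964). BNIP3L, the paralogue of BNIP3, ranged less, from 167.7 to 383.7 CPM in KO clones and from 218.9 to 402.7 CPM in WT clones. Per kb, BNIP3 made up 0.905% of both paralogues in S36, 14.5% to 21.8% in the other KO clones and 10.5% to 18.8% in WT clones.

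The genes around these loci were summarised in the same way, and their part was not tested. The 23 tested genes within 5 Mb of BNIP3 (chr10:131966455-131982013) had a median log2 difference from the WT mean of -0.21 in S04 and -0.08 in S36. The 136 around PFKFB4 (chr3:48517684-48562015) were at -0.03 in S04 and 0.06 in S36, and the 36 around EGLN3 (chr14:33924231-34462774) at -0.07 in S04 and -0.27 in S36. The 18 around PFKFB3 (chr10:6144934-6254644) were at -0.11 in S04 and -0.03 in S36, and the 73 around P4HA1 (chr10:73007217-73096974) at 0.04 in S04 and 0.28 in S36. Over the whole of chromosome 10, which carries 8 members, the median was 0.03 in S04 and 0.29 in S36.

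**Figure D3:**
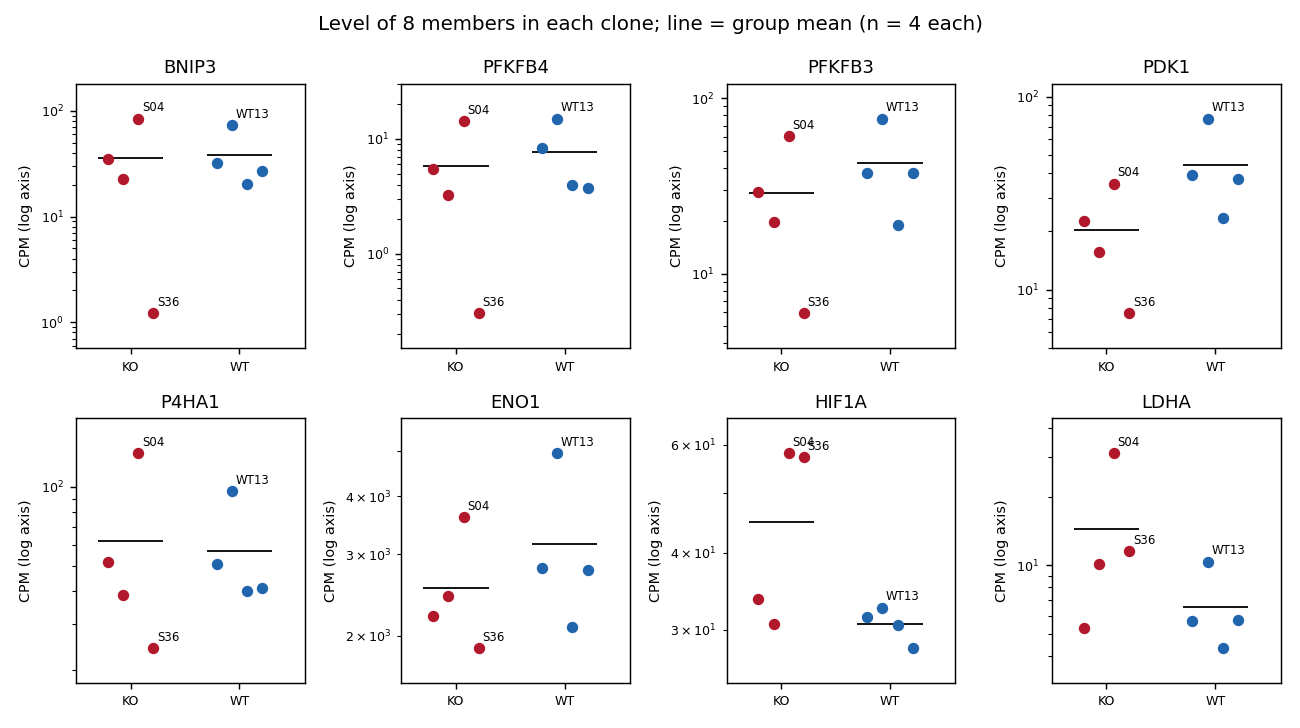
Level in CPM (log y axis) of 8 members in each clone, KO clones in red at the left and WT clones in blue at the right of each panel, with a line at the group mean (n = 4 each). S04 and WT13 are the highest and S36 the lowest of their groups for BNIP3, PFKFB4, PFKFB3, PDK1, P4HA1 and ENO1, while both S clones are high for HIF1A.

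Other genes of the hypoxia response lay closer together in S04 and S36. VEGFA, the angiogenic growth factor, was at 30.3, 18.9, 43.3 and 14.5 CPM in C12, C15, S04 and S36, against 23.5, 31.1, 22.1 and 17.2 CPM in WT10, WT13, WT28 and WT30. DDIT4, which restrains mTOR signalling, was at 47.3, 12.9, 57.5 and 32.8 CPM in C12, C15, S04 and S36, against 54.6, 76.9, 51.5 and 36.7 CPM in WT10, WT13, WT28 and WT30 (log2 fold change -0.51, SE 0.36, adjusted p = 0.531 by edgeR). KDM3A, a histone demethylase, was at 64.6, 48.0, 127.9 and 67.8 CPM in C12, C15, S04 and S36, against 94.0, 113.7, 82.3 and 84.1 CPM in WT10, WT13, WT28 and WT30. S04 was the highest KO clone and WT13 the highest WT clone for each, and C15 was the lowest KO clone for DDIT4 and KDM3A. Of the exon bases of DDIT4, 41.2% are shared with ENSG00000269926 on the other strand, and whether counting used strand is not given in the sources used here. NDRG1 departed from this order among WT clones, at 11.1, 9.43, 9.65 and 7.98 CPM in WT10, WT13, WT28 and WT30 (log2 fold change of KO over WT 0.35, SE 0.25, adjusted p = 0.549 by edgeR).

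The targets that were not tested were near the floor. CA9, a carbonic anhydrase used as a marker of hypoxia, had 0 counts in all 8 clones. ADM, a vasodilator peptide, had 0 counts in KO clones and at most 3 in a WT clone. ANKRD37 had 13 counts in S04, 1 in S36 and 0 in the other 6 clones, and ANGPTL4, a secreted lipase inhibitor, had 12, 0, 21 and 0 counts in C12, C15, S04 and S36, against 14, 11, 4 and 7 in WT10, WT13, WT28 and WT30. EGLN1, the main HIF prolyl hydroxylase of most cells, had at most 7 counts in any clone, and P4HA2, the paralogue of P4HA1, at most 13. The part that the counting of reads matching several places had in the EGLN1 level was not tested.

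Within each group, certain clones were at the top or the bottom for many of the members. WT13 was the highest WT clone for 27 of the 32 tested members, or 84.4%, as it was for 27.4% of all tested genes. The 5 exceptions were NDRG1, PFKP, LDHB, PFKM and PDK3. S04 was the highest KO clone for 22 of 32 members, or 68.8%, as it was for 27.8% of all tested genes, and S36 the lowest KO clone for 15, or 46.9%, as it was for 19.2% of all tested genes. C15 was the lowest KO clone for 10, or 31.2%, beside 35.9% of all tested genes. C12 was lowest for 6, or 18.8%, beside 17.3%, so both shares were near those of all genes. Among the 14 tested glycolytic enzymes S04 and C15 were each the highest KO clone for 6, beside 27.8% and 29.6% of all tested genes. S04 was highest for 16 of the 18 other members. WT28 was the lowest WT clone for 19, or 59.4%, as it was for 27.1% of all tested genes. The members share libraries and regulators and are not replicates, so these shares are a description with no test. The order was noticed in the data.

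**Figure D4:**
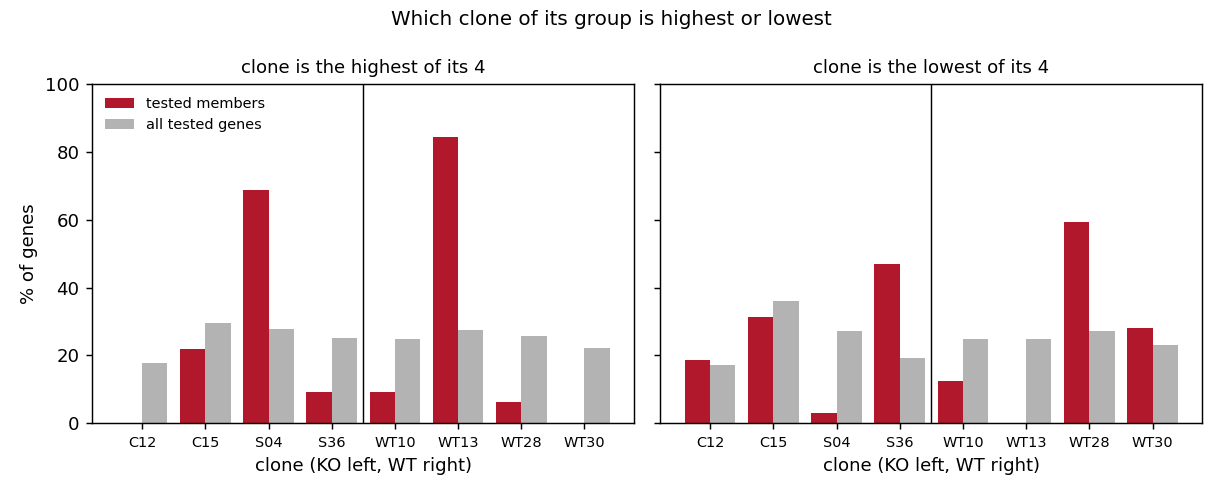
Share of genes (y axis, %) for which each clone (x axis, KO left of the line, WT right) is the highest (left panel) or the lowest (right panel) of the 4 clones of its group, for the 32 tested members in red and all 14243 tested genes in grey. S04 and WT13 stand out as highest, at 68.8% and 84.4% of members.

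By size, the median log2 difference of the members from the WT mean was -0.21 (C12), -0.28 (C15), 0.38 (S04) and -0.64 (S36), against 0.00 in WT10, 0.50 in WT13, -0.20 in WT28 and -0.13 in WT30. Over all tested genes these medians lay between -0.05 in C15 and 0.02 in C12, both KO, and between 0.00 and 0.01 in WT clones. Split by role, the 14 tested glycolytic enzymes were at 0.14 in S04 and -0.46 in S36, the 8 tested HIF targets at 0.69 in S04 and -0.68 in S36, and the PFKFB pair at 0.89 in S04 and -3.32 in S36. In WT13 the same groups were at 0.54, 0.47 and 1.10. The distance between S04 and S36 was, of these 3, smallest for the enzymes and largest for the PFKFB pair. Of the other roles, the 4 lactate and pyruvate genes were at -0.003 in S04 and -0.30 in S36. The 2 glucose transporters were at 0.42 and -1.22, and the 2 tested HIF sensing genes at 1.90 and -1.12, in S04 and S36. The last value joins 2 unlike genes: in S36 HIF1A was at 0.90 and EGLN3, with 0 counts, at -3.13. The EGLN3 value rests on the prior count, and HIF1A was above the WT mean.

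**Figure D5:**
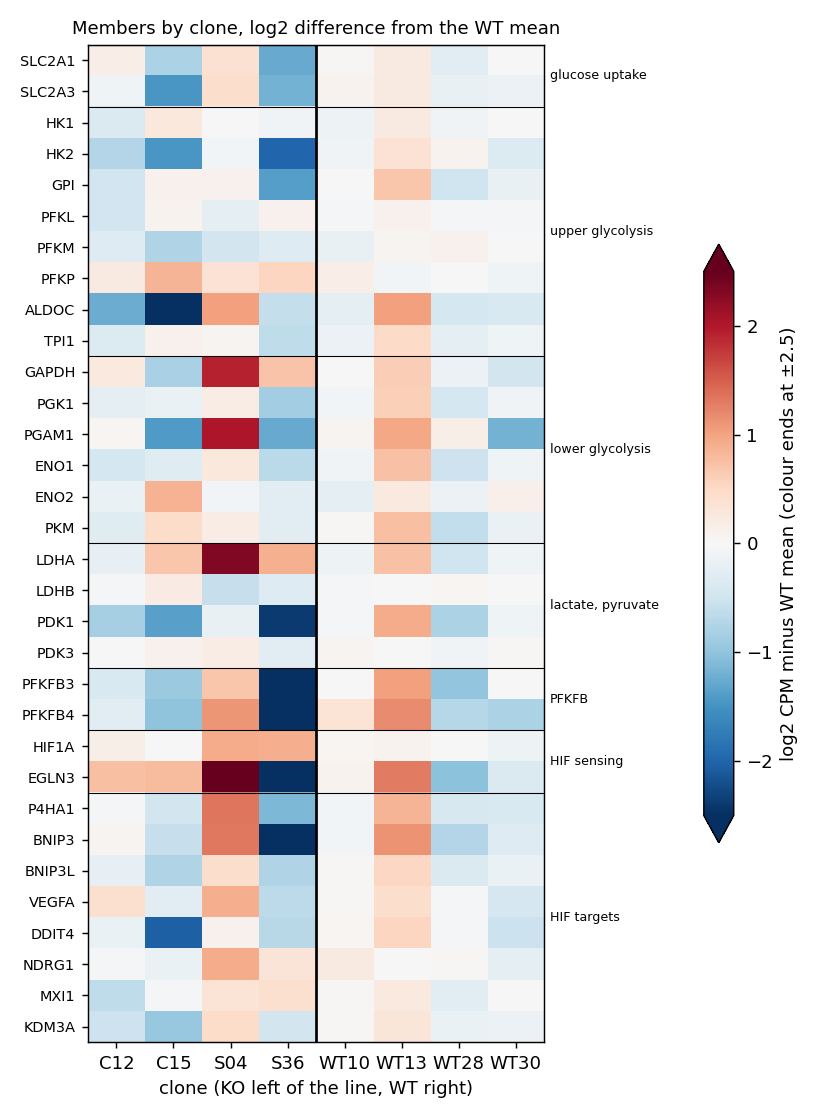
Log2 CPM minus the mean of the WT clones (colour, ends at 2.5 either way) for the 32 tested members (rows, by role) in each clone (columns, KO left of the line, WT right). Red columns at S04 and WT13 and a blue column at S36 run through most roles, with medians of 0.38, 0.50 and -0.64. S36 is above the WT mean for HIF1A (0.90), LDHA (0.88), GAPDH (0.71), PFKP (0.53), MXI1 (0.39), NDRG1 (0.33) and PFKL (0.10). S04 is furthest below it for LDHB (-0.57) and PFKM (-0.46).

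A separate list of 36 other genes reported to be HIF-induced, of which 26 were tested, was summarised by clone in the same way. WT13 was highest of the WT clones for 19 of the 26, as it was for 27.4% of all tested genes. S04 was highest of the KO clones for 15, beside 27.8% of all tested genes, and S36 lowest for 17, beside 19.2%. The list was chosen with earlier results of these data known, so it is no independent check of the order. Their median log2 difference was 0.44 in S04 and -0.52 in S36, against 0.21 in WT13. AK4, a mitochondrial adenylate kinase, was at 3.12, 8.46, 18.5 and 0.153 CPM in C12, C15, S04 and S36, against 7.28, 14.7, 4.33 and 2.44 CPM in WT10, WT13, WT28 and WT30. GBE1, the glycogen branching enzyme, was at 31.0, 12.9, 62.0 and 13.8 CPM in C12, C15, S04 and S36, against 31.4, 58.1, 19.97 and 17.99 CPM in WT10, WT13, WT28 and WT30. AK4 and GBE1 were picked after their values were seen.

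In KO over WT no gene of this list, of the other glycolysis and pyruvate genes or of the oxygen-sensing machinery was called with edgeR, and at an unadjusted p under 0.05 there were 5 of 26 other HIF-induced genes (3 higher, 2 lower), 2 of 18 tested other genes of glycolysis and pyruvate (1 higher, 1 lower) and 1 of 12 of the oxygen-sensing machinery (lower), beside 15.5% of all tested genes. In S clones over WT the HIF-induced list had 1 called higher and 1 lower. KDM4C, a histone demethylase, was at 10.7 CPM in S04 and 9.001 in S36, where WT clones had 4.43 to 4.78 CPM (log2 fold change 1.09, SE 0.21, adjusted p = 0.017 by edgeR). CXCR4, a chemokine receptor, was at 252.5 CPM in S04 and 182.6 in S36, set against 358.4 to 437.2 CPM in WT clones (-0.86, SE 0.17, adjusted p = 0.0172 by edgeR). KDM4C thus rose and CXCR4 fell in S clones. For all KO clones over WT, CXCR4 had a log2 fold change of -0.77 (SE 0.15, adjusted p = 0.0749 by edgeR). KDM4C had 0.78 there (SE 0.25, adjusted p = 0.194 by edgeR). No chromosome-wide value was set beside CXCR4, and the part of its surroundings was not tested. In the C clones KDM4C was at 6.05 CPM (C12) and 5.24 (C15), above every WT clone, and CXCR4 at 264.0 CPM (C12) and 230.5 (C15), below every WT clone; neither was called there. KDM4C lies on chromosome 9, whose 482 tested genes had a median log2 difference from the WT mean of 0.21 (C12), 0.40 (C15), 0.39 (S04) and 0.36 (S36), against -0.01 to 0.02 in WT clones, and its part was not tested.

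Of the other genes of glycolysis and pyruvate, 2 of 18 were called, both lower in S clones. PDHA1, the catalytic subunit of pyruvate dehydrogenase, was at 66.0 CPM (S04) and 64.9 (S36), with 120.4 (C12) and 161.2 (C15) in the other KO clones, against 133.0 to 162.9 CPM in WT clones (S clones over WT -1.18, SE 0.17, adjusted p = 0.00641 by edgeR; C clones over S clones 1.10, SE 0.18, adjusted p = 0.049 by edgeR). ENO3, the muscle enolase, was at 3.32 CPM in S04 and 3.20 in S36, where WT clones had 6.32 to 10.5 CPM (-1.25, SE 0.31, adjusted p = 0.0346 by edgeR). Both fell in S clones, and PDHA1 was in addition called higher in C clones than in S clones, a comparison in which 0 genes were called on leaving out WT10, WT13, WT28 or WT30. Of the oxygen-sensing machinery 1 of 12 was called, ELOB, a subunit of the ligase complex with VHL, lower at 112.5 CPM in S04 and 143.6 in S36, where WT clones had 178.9 to 200.7 CPM (-0.59, SE 0.14, adjusted p = 0.0338 by edgeR). These counts are to be read beside the 4.69% of all tested genes called higher and the 4.96% called lower in S clones.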

How the data were processed

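The authors deposited 1 table of raw counts per gene for 8 RNA-seq libraries, from total RNA extracted with a column kit, per the labels' protocols. The submitters' processing notes list FastQC, SAMtools, Subread and TopHat2, and the hg38 build. Neither their roles and versions nor the annotation, strand setting and handling of reads matching several places is given in the sources used here.

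Counts were used as deposited. filterByExpr kept 14243 genes, TMM factors scaled the library totals, and KO and WT clones were compared with the two-sided quasi-likelihood test of edgeR 4.0.16 (R 4.3.3), calling genes at a Benjamini-Hochberg adjusted p under 0.05 across the whole table. S and C clones were compared with WT clones and with each other in a fit with 3 groups. Log2 levels had a prior count of 2. Alternatives were DESeq2 1.42.0, limma-voom (limma 3.58.1), RLE factors, other filters, thinning to 2730285 counts, leaving out mitochondrial genes, chromosomes 2, 9 and 10 or single clones, and each letter of KO clones by itself. DESeq2 ran on the table without the low-count filter.

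Positions and transcript lengths (median over principal transcripts) came from GENCODE 29 on the same build. By symbol or Ensembl identifier it matched 52745 of the 61228 rows, and all 39 members. Promoter sequences came from RefSeq, and the bases after the start were found in GENCODE transcripts for 11 of 11 minus-strand and 42 of 50 plus-strand promoters. Libraries of a group differed beyond sampling noise (chi-square per degree of freedom of at least 28.2 among KO and 13.9 among WT clones).

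Full statistics are given for NKX2-1, for members past the threshold in any comparison, for the 12 members with the smallest p in KO against WT and for the 6 in C against S. Some genes of the lists are not reported here. Members and lists were chosen with earlier results of these data known. Cultures and dates are not in the labels, so the p-values reflect only how far these clones vary, which may in part be technical. On simulated counts with 200 of 14243 genes changed, edgeR recovered 36% of genes changed 2-fold and 89% of those changed 4-fold in KO against WT (4.58% of calls false), and 25% and 82% in S clones against WT (3.6% false).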

Additional observations from a re-analysis of the deposited data

Results flagged for a closer look

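Within the groups of 4 clones, 3 of 64 checks of a tested member had 1 clone set apart from its group by Dixon's criterion on the log2 CPM scale, where chance gives about 3.2. ENO2 in C15 was at 8.39, or 336.5 CPM, with 153.5 to 175.3 CPM in the other KO clones; C15 is the shallowest library. PFKL in WT13 was at 6.49, or 89.9 CPM, with 81.1 to 82.3 CPM in the other WT clones. ALDOC in WT13 was at 2.85, or 7.07 CPM, with 2.496 to 2.92 CPM in the other WT clones. Their origin was not tested.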

How the results depend on the processing

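The main limits are the number of clones, 4 a group and 2 a letter, the depth of C15, and unknown counting of reads with several matches. Of the alternatives for single members, 317 kept their direction and their side of the threshold, 12 passed it newly, 5 lost it and 3 turned. The turned ones, all for KO against WT, were GAPDH with the C clones alone (log2 fold change -0.14), NDRG1 with the C clones alone (-0.11) and EGLN3 without S04 (-0.14, its values on leaving out a clone running up to 2.03); the 5 lost ones were all LDHA in S clones against WT. Newly passing for KO against WT were PFKP (0.43), HIF1A (0.90), LDHA (1.70) and GAPDH (1.39) with the S clones alone, where LDHB was called lower, and PDK1 (-1.14), HK2 (-0.91) and LDHA (1.12) without the low-count filter. No paired analysis was possible because the clones share no replicate numbers.

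Members called in KO against WT were 0 in each direction, 1 higher and 2 lower without the low-count filter, and 4 higher and 1 lower with the S clones alone; leaving out a clone kept them at 0. Members called in S clones against WT were 2, with 7 without the filter, 4 with DESeq2, 4 with limma-voom, 1 with thinned libraries and 1 to 6 on leaving out a clone. Without S04 they were HK2, PDK1, PFKFB4, PFKFB3, BNIP3 and HIF1A, and without S36 they were NDRG1, LDHA, GAPDH, LDHB, EGLN3 and HIF1A, the lone S clone being taken to vary like the other groups. Members called in C clones against WT were 0, with 5 without the filter and 0 to 1 on leaving out a clone (PFKP without C12). Members called in C clones against S clones were 0, with 4 without the filter, 2 with DESeq2 and 0 to 2 on leaving out a clone (ENO2 and HIF1A without C12).

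Over all genes, those called in KO against WT were 45, with 581 without the filter, 500 with DESeq2, 94 with limma-voom, 4 thinned, 28 without chromosomes 2, 9 and 10, 6 with the C clones alone, 2211 with the S clones alone and 3 to 456 on leaving out a clone. Those in S clones against WT were 1374, with 2266 without the filter, 635 thinned and 300 to 2164 on leaving out a clone. Those in C clones against WT were 5, with 259 without the filter, 2 with at least 1 CPM in 6 clones, 72 with DESeq2, 1 thinned and 1 to 174 on leaving out a clone. Those in C clones against S clones were 51, with 14 with RLE factors, 762 without the filter, 14 with at least 1 CPM in 6 clones, 528 with DESeq2, 153 with limma-voom, 25 thinned, 12 without chromosomes 2, 9 and 10 and 0 to 749 on leaving out a clone. Thinning and the filters test fewer or more genes; other causes were not tested.

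The clone order was recomputed with RLE factors, thinned libraries and without mitochondrial genes, alternatives chosen after seeing the data. WT13 was the highest WT clone for 27 of 32, 24 of 29 and 27 of 32 tested members, S04 the highest KO clone for 22, 18 and 23, and S36 the lowest KO clone for 16, 16 and 16.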
